A study of Mus musculus with 24 samples.

Results

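Livers of Adn-Lpin1-/- mice on a low-fat diet (LFD) were compared with livers of WT mice on a high-fat diet (HFD), so that the knockout was read against diet feeding in animals of the other genotype. The 10 libraries of these groups were taken by their labels, 5 of single Adn-Lpin1-/- LFD mice and 5 of single WT HFD mice, out of 24 bulk RNA sequencing libraries in the series. The Adn-Lpin1-/- mice carried floxed Lpin1 and a Cre recombinase driven by the adiponectin promoter, which removes the phosphatidic acid phosphohydrolase lipin 1 from adipocytes, and the WT littermates carried the floxed alleles without Cre. All were male, on a C57BL/6J background, and 8 weeks old at the start of a diet with 10% (LFD) or 60% (HFD) of kcal from fat, with a 4-hour fast before sacrifice. The study's text gives 5 weeks of feeding and the sample labels give 16 weeks. Genotype and diet both differ between these groups, so their contributions to a difference cannot be told apart from this comparison alone. For that reason the 10 single mice of the other groups, Adn-Lpin1-/- HFD and WT LFD, were used as a second comparison that shares no mouse with the first: the genotypes stand the same way in both, and the diets are exchanged. A pooled library of each group, which by its label holds the same 5 mice, was left out.

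The liver stores fat that reaches it as fatty acids from adipose tissue and the gut, and it also makes fatty acids from carbohydrate. Proteins on the surface of lipid droplets set how large the droplets grow and how fast they are broken down. Carbohydrate and insulin raise the genes of fatty acid synthesis, and dietary fat, above all polyunsaturated fat, lowers them. When fat accumulates for long, hepatic stellate cells can lay down collagen and macrophages can take on a program for handling lipid. Hepatocytes near the central vein hold most of the cytochrome P450 enzymes and begin bile acid synthesis, and those near the portal vein make glucose and urea.

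Total counts of the 10 mice lay between 51095146 and 62249701, and the ratio of the medians, WT HFD over Adn-Lpin1-/- LFD, was 1.08. The second comparison was less even, with 57550362 to 81072794 counts in Adn-Lpin1-/- HFD and 36260187 to 45999456 in WT LFD. Depth thus did not overlap there, and its part in those calls was not tested. A gene was called where edgeR's quasi-likelihood test gave an adjusted p at or below 0.05 among the 13052 genes that exceeded 1 CPM in 4 or more of the 20 single mice. CPM, counts scaled to the size of the library, are on TMM-scaled sizes throughout. Pearson's r of log2 CPM over genes was 0.977 to 0.989 between mice of Adn-Lpin1-/- LFD and 0.979 to 0.991 between mice of WT HFD. Hepatocyte markers were abundant in every library, with a summed level of 73850 to 98710 CPM in Adn-Lpin1-/- LFD and 96470 to 120600 CPM in WT HFD. Liver Lpin1, on GRCm38 at chr12:16535669-16610966, was 1195, 590.4, 453, 512 and 322 CPM in the Adn-Lpin1-/- LFD mice and 275, 137, 153, 556 and 252.05 CPM in the WT HFD mice. The ranges overlapped (log2 fold change 1.16, SE 0.50, edgeR adjusted p = 0.104). The gene was called higher without mouse 4 of WT HFD (log2 fold change 1.59, edgeR adjusted p = 0.0354) and by voom with pools (1.2, adjusted p = 0.00435). That last p counts mice more than once, since the pools repeat the same mice. Since the gene was deleted in adipocytes this level does not check the genotype.

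Membership of the 2 groups accounted for 39.0% of the variation in log2 CPM over all genes tested (two-sided exact permutation test over the mice, p = 0.00794, the smallest it can give). A total of 2694 genes were called, or 20.6% of those tested, with 1246 higher in Adn-Lpin1-/- LFD (9.55%) and 1448 lower (11.1%). Of the called genes, 250 were at least 2-fold higher and 99 at least 2-fold lower, and 41 and 14 reached 4-fold. The 5 mice of one group lay entirely above or below the 5 of the other in 1943 genes tested (14.9%), and in 1697 of those called. The median log2 fold change of all genes was 0.004, and that of called genes was 0.47 in absolute size.

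Genes called in the 2 directions differed in base composition. The median GC content of their transcripts was 53.9% for genes higher in Adn-Lpin1-/- LFD and 45.0% for genes lower, against 49.7% for all genes tested. Of 10 equal groups of genes by GC content, the group with the least GC had 2.46% called higher and 26.6% lower, and the group with the most had 20.3% called higher and 4.39% lower. After each library's trend with GC content was removed, 2460 genes were called, 1994 of them among the 2694, which is 74.0% of these. The part of library composition in the calls beyond this was not tested.

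**Figure D1:**
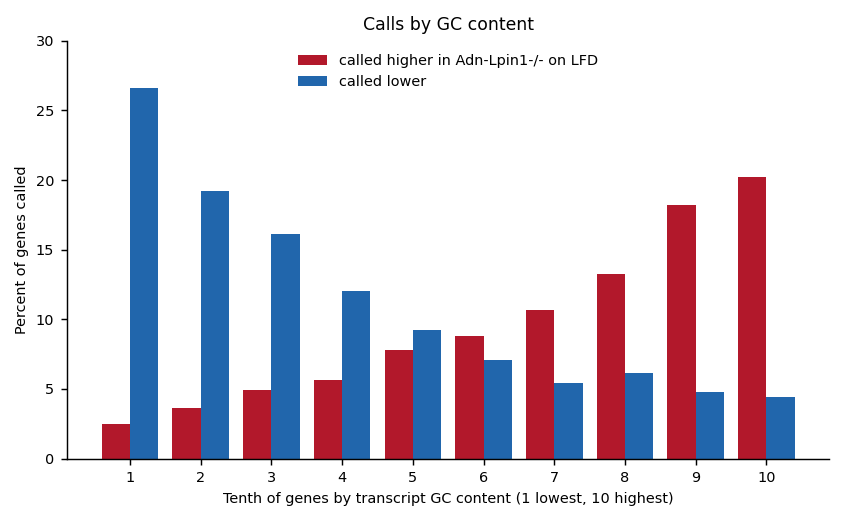
Percent of genes called higher (red) or lower (blue) in Adn-Lpin1-/- on LFD than in WT on HFD, in 10 equal groups of genes ordered by GC content on the horizontal axis. Calls of higher genes rose from 2.46% to 20.3% and calls of lower genes fell from 26.6% to 4.39% between the first and the last group.

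Among called genes of at least 1 CPM whose 5 and 5 mice did not overlap, the largest increases in Adn-Lpin1-/- LFD included genes of lipid droplets, glycogen and lipoproteins. Cidea, a protein that enlarges lipid droplets and is best known from brown fat, was 0.114, 6.54, 0.191, 8.4 and 24.4 CPM in the Adn-Lpin1-/- LFD mice and 0.073, 0, 0, 0.077 and 0 CPM in the WT HFD mice (log2 fold change 8.00, SE 1.73, edgeR adjusted p = 0.00279). The raw counts were 0 to 4 in WT HFD and 6 to 1490 in Adn-Lpin1-/- LFD, so the size of this ratio is poorly set, and mice 1 and 3 of the knockout were close to the WT level while mice 2, 4 and 5 were far above it. Voom with quality weights did not call Cidea (log2 fold change 6.2, adjusted p = 0.123). Cidea reached at most 0.077 CPM in WT HFD and 0.0986 CPM in WT LFD. It thus passed the limit of 1 CPM in 4 mice through the knockout groups, where it was high. B430212C06Rik, a gene on the other strand that overlaps Cidea, was also higher (log2 fold change 2.22), and since the counting is not stated to use strand, reads of overlapping genes on opposite strands cannot be told apart. Ppp1r3g, at chr13:35958839-35970388, encodes a subunit that brings protein phosphatase 1 to glycogen, and it was 45.9, 71.7, 18.6, 42 and 36 CPM in the Adn-Lpin1-/- LFD mice and 1.6, 0.564, 1.42, 2.56 and 1.61 CPM in the WT HFD mice. The lowest knockout mouse was at 18.6 CPM and the highest WT HFD mouse at 2.56 CPM (log2 fold change 4.79, SE 0.39, edgeR adjusted p = 2.03e-07).

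Pnpla5 and Pnpla3, neighbouring genes for lipases of the patatin-like family, were also among the 10 largest increases. Pnpla5 was 1.23, 3.1, 2.47, 1.65 and 2.02 CPM in the Adn-Lpin1-/- LFD mice and 0.0182, 0.146, 0, 0.192 and 0.0342 CPM in the WT HFD mice (log2 fold change 4.74, SE 0.79, edgeR adjusted p = 0.000324). Pnpla3 was 8.18, 13, 10.7, 6.08 and 11.2 CPM in the Adn-Lpin1-/- LFD mice and 0.821, 1.2, 1.28, 1.23 and 0.377 CPM in the WT HFD mice (log2 fold change 3.32, SE 0.51, edgeR adjusted p = 0.00015). Apoa4, an apolipoprotein of triglyceride-rich particles, was 944, 2654, 1476, 1815 and 1777 CPM in the Adn-Lpin1-/- LFD mice and 187, 87.3, 211, 507 and 114 CPM in the WT HFD mice (log2 fold change 2.97, SE 0.53, edgeR adjusted p = 0.000562). No overlap between the groups was part of the rule that chose these genes. Pnpla5 reached no more than 0.399 CPM in any HFD mouse and passed the limit of 1 CPM mainly through Adn-Lpin1-/- LFD.

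Among the remaining increases were several receptors and surface proteins that are better known from other tissues. Chrna4, a subunit of nicotinic acetylcholine receptors, was 36.3, 45.5, 45.5, 24.6 and 16 CPM in the Adn-Lpin1-/- LFD mice and 6.0, 4.02, 4.1, 8.18 and 1.64 CPM in the WT HFD mice (log2 fold change 2.81, SE 0.45, edgeR adjusted p = 0.000228). Ntrk2, the receptor for brain-derived neurotrophic factor, was 12.7 ± 9.27 CPM in Adn-Lpin1-/- LFD and 1.51 ± 0.477 CPM in WT HFD (SD, n = 5 each; log2 fold change 3.07, SE 0.54, edgeR adjusted p = 0.000496). Ephb2, a receptor for ephrins, was 6.16 ± 4.49 CPM in Adn-Lpin1-/- LFD and 0.296 ± 0.231 CPM in WT HFD (SD, n = 5 each; log2 fold change 4.38, SE 0.95, edgeR adjusted p = 0.00284). Ly6d, a surface protein anchored by a lipid tail, reached 8.14 ± 7.58 CPM in Adn-Lpin1-/- LFD and 0.807 ± 0.58 CPM in WT HFD (SD, n = 5 each; log2 fold change 3.34, SE 0.74, edgeR adjusted p = 0.00343). Bglap3, a relative of the osteocalcin genes, was the last of the 10 with 2.65 ± 1.6 CPM in Adn-Lpin1-/- LFD and 0.351 ± 0.36 CPM in WT HFD (SD, n = 5 each; log2 fold change 2.90, SE 0.60, edgeR adjusted p = 0.00188). Bglap3 was at 1.02 CPM or more in every Adn-Lpin1-/- LFD mouse. Its highest level was 0.916 CPM in WT HFD and 0.809 CPM in Adn-Lpin1-/- HFD. It thus passed the limit of 1 CPM in 4 mice through the group where it was high. A predicted gene of similar size of increase was passed over.

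With the same limits, the largest decreases included a secreted metabolic factor, the first enzyme of bile acid synthesis, a zinc finger gene and a membrane aminopeptidase. Enho, which encodes the secreted peptide adropin, was 2.14, 1.5, 1.94, 1.38 and 1.48 CPM in the Adn-Lpin1-/- LFD mice and 11.5, 18.3, 18.8, 7.91 and 39.4 CPM in the WT HFD mice (log2 fold change -3.50, SE 0.52, edgeR adjusted p = 0.0001). The highest knockout mouse was at 2.14 CPM and the lowest WT HFD mouse at 7.91 CPM. Zfp871, the zinc finger gene, was 3.66, 2.87, 1.87, 3.27 and 1.52 CPM in the Adn-Lpin1-/- LFD mice and 25.7, 25.3, 22, 22.7 and 20.4 CPM in the WT HFD mice (log2 fold change -3.14, SE 0.21, edgeR adjusted p = 1.26e-08). Lnpep, the aminopeptidase, which travels with glucose transporter vesicles, was 1.12, 1.02, 1.47, 1.1 and 1.0 CPM in the Adn-Lpin1-/- LFD mice and 7.61, 8.43, 7.56, 7.55 and 4.84 CPM in the WT HFD mice (log2 fold change -2.65, SE 0.15, edgeR adjusted p = 1.15e-09).

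Lcor, a corepressor of nuclear receptors, was 1.14 ± 0.494 CPM in Adn-Lpin1-/- LFD and 6.81 ± 0.814 CPM in WT HFD (SD, n = 5 each; log2 fold change -2.58, SE 0.22, edgeR adjusted p = 4.25e-07). Gprin3, a partner of G proteins, was 2.07 ± 0.566 CPM in Adn-Lpin1-/- LFD and 13 ± 1.34 CPM in WT HFD (SD, n = 5 each; log2 fold change -2.65, SE 0.22, edgeR adjusted p = 2.81e-07). Lmbrd2, a membrane protein, was 3.41 ± 1.02 CPM in Adn-Lpin1-/- LFD and 17 ± 3.48 CPM in WT HFD (SD, n = 5 each; log2 fold change -2.32, SE 0.21, edgeR adjusted p = 9.39e-07), and Klhl11, an adaptor of ubiquitin ligases, was 0.606 ± 0.425 CPM in Adn-Lpin1-/- LFD and 2.26 ± 0.30 CPM in WT HFD (SD, n = 5 each; log2 fold change -1.91, SE 0.32, edgeR adjusted p = 0.000309). Arrdc3, an arrestin-domain protein, was 49.7, 71.3, 62.9, 33.4 and 68.5 CPM in the Adn-Lpin1-/- LFD mice and 286, 276, 173, 149 and 190.3 CPM in the WT HFD mice (log2 fold change -1.91, SE 0.29, edgeR adjusted p = 0.000118). Arrdc3 overlaps 1700023H06Rik on the other strand, which was lower as well (log2 fold change -4.41), with the same limit on strand as for Cidea. The cytochrome P450 gene Cyp2g1 was 0.489 ± 0.18 CPM in Adn-Lpin1-/- LFD and 1.82 ± 0.275 CPM in WT HFD (SD, n = 5 each; log2 fold change -1.89, SE 0.25, edgeR adjusted p = 3.76e-05). Cyp2g1 reached at most 0.663 CPM in Adn-Lpin1-/- LFD and 0.466 CPM in Adn-Lpin1-/- HFD, so it passed the limit of 1 CPM through the WT groups. Cyp7a1, the 10th of this group, is described with the bile acid genes, and 4 predicted genes with decreases of this size were passed over.

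**Figure D2:**
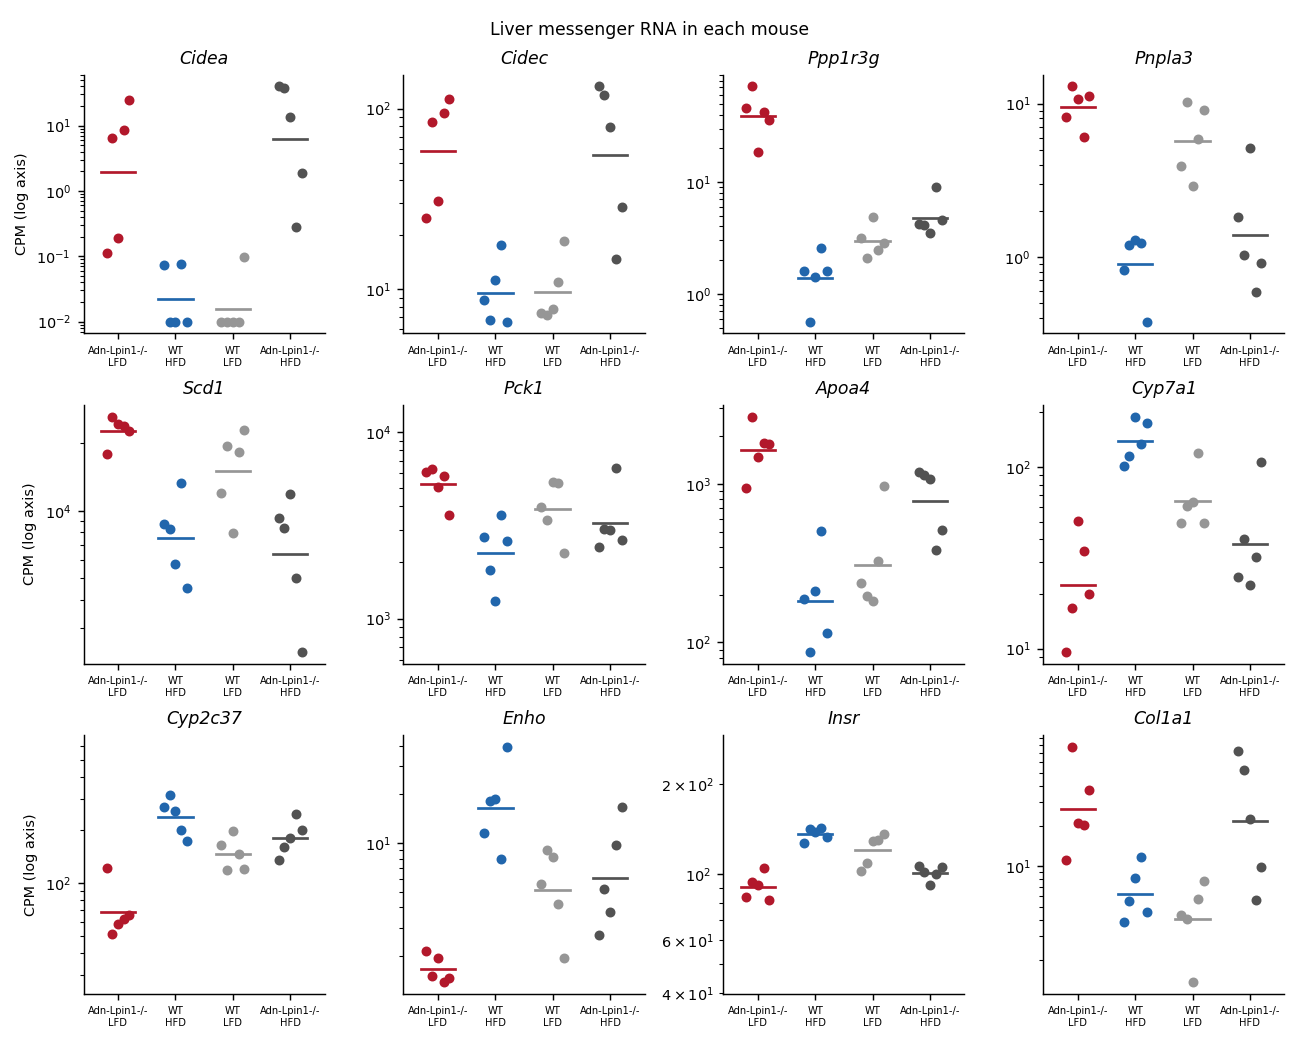
CPM of 12 genes in each single mouse on log axes, with the geometric mean of each group as a line, for Adn-Lpin1-/- LFD (red), WT HFD (blue), WT LFD (light grey) and Adn-Lpin1-/- HFD (dark grey); values below 0.01 are drawn at 0.01. The red and blue mice do not overlap except in Pck1 and Col1a1.

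The second comparison, Adn-Lpin1-/- HFD against WT LFD, showed which of these differences kept the side of the genotype when the diets were exchanged. Of the 1246 genes higher in Adn-Lpin1-/- LFD than in WT HFD, 399 (32.0%) were also called higher in Adn-Lpin1-/- HFD than in WT LFD, where 12.2% of all genes were called higher, and 62 (4.98%) were called lower, where 11.8% of all genes were. Of the 1448 genes lower in Adn-Lpin1-/- LFD, 498 (34.4%) were called lower and 53 (3.66%) higher. The 897 genes of the same direction stayed with the genotype, and the 115 of the opposite direction stayed with the diet. With the GC trend removed these numbers were 727 and 116. Over all 13052 genes Pearson's r of the 2 log2 fold changes was 0.39 and Spearman's rho 0.40, a description across genes, which are not independent.

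With the same limits as above, the 5 largest changes that stayed with the genotype were in Cidea, Ly6d, Zfp871, Cidec and Ttc39a. Their log2 fold changes in the second comparison were 9.68 (edgeR adjusted p = 0.00134), 2.65 (edgeR adjusted p = 0.0144), -2.42 (edgeR adjusted p = 3.12e-07), 2.85 (edgeR adjusted p = 0.00125) and 1.45 (edgeR adjusted p = 0.0201). Cidea exceeded 1 CPM in knockout mice only, so in both comparisons it was tested through the group where it was high. Cidec, which fuses lipid droplets, lies at chr6:113424634-113435760 and was 24.8, 84.3, 30.8, 94.2 and 114 CPM in the Adn-Lpin1-/- LFD mice and 8.75, 6.79, 11.3, 17.5 and 6.63 CPM in the WT HFD mice (log2 fold change 2.77, SE 0.54, edgeR adjusted p = 0.00123). Ttc39a, a gene with tetratricopeptide repeats, was 6.35 ± 3.03 CPM in Adn-Lpin1-/- LFD and 0.986 ± 0.315 CPM in WT HFD (SD, n = 5 each; log2 fold change 2.68, SE 0.45, edgeR adjusted p = 0.000306). Lnpep, Gprin3, Lcor, Lmbrd2 and Klhl11 were lower in the knockout of the second comparison too, with log2 fold changes of -1.86, -2.17, -2.04, -1.45 and -1.37 and a largest edgeR adjusted p of 0.00416.

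The 5 largest changes that stayed with the diet, again among named genes of at least 1 CPM without overlap, were in Pnpla5, Pnpla3, Chrna4, Fads3 and Adam11, all higher on the LFD in both comparisons. With the diets exchanged, the log2 fold change was -2.60 (edgeR adjusted p = 0.013) for Pnpla5, -1.75 (edgeR adjusted p = 0.0122) for Pnpla3, -3.54 (edgeR adjusted p = 5.84e-05) for Chrna4, -0.99 (edgeR adjusted p = 0.0191) for Fads3 and -0.92 (edgeR adjusted p = 0.0158) for Adam11. Fads3, a member of the fatty acid desaturase family, was 27.2, 92.3, 74.5, 59.3 and 54.5 CPM in the Adn-Lpin1-/- LFD mice and 14.4, 11.1, 13.1, 22.5 and 24.4 CPM in the WT HFD mice (log2 fold change 1.85, SE 0.30, edgeR adjusted p = 0.00022). Adam11, a disintegrin-domain protein of the cell surface, was 18 ± 5.86 CPM in Adn-Lpin1-/- LFD and 5.36 ± 1.26 CPM in WT HFD (SD, n = 5 each; log2 fold change 1.74, SE 0.27, edgeR adjusted p = 0.00015). Pnpla5 and Pnpla3 lie 44661 bases apart on chromosome 15, at chr15:84112356-84123175 and chr15:84167837-84187236, and point away from each other.

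Upstream sequence is shown for these genes because they moved together with the diet. RefSeq windows on GRCm38.p6 matched 4 of the 5 genes (not Adam11), and the 250 bases before the RefSeq start are given 5′ to 3′ on the strand of the gene, with the pentamer CCAAT, or ATTGG where it lies on the other strand, in capitals. The windows lie at chr15:84123176-84123425 on the minus strand (Pnpla5), chr15:84167566-84167815 on the plus strand (Pnpla3), chr2:181039178-181039427 on the minus strand (Chrna4) and chr19:10041298-10041547 on the plus strand (Fads3).
Pnpla5: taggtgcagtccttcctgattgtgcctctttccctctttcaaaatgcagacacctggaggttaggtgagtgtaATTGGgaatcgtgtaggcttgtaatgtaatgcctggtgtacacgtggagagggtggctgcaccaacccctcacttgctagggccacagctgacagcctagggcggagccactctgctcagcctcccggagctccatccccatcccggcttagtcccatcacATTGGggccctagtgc
Pnpla3: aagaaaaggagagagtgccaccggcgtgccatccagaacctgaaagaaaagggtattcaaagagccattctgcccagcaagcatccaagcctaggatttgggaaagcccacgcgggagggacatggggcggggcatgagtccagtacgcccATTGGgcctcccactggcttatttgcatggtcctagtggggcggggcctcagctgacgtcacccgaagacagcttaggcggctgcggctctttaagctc
Chrna4: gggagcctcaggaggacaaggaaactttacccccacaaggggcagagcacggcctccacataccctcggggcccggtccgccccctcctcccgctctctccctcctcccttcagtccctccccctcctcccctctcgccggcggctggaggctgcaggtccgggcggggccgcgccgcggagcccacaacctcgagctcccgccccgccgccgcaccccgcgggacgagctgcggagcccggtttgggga
Fads3: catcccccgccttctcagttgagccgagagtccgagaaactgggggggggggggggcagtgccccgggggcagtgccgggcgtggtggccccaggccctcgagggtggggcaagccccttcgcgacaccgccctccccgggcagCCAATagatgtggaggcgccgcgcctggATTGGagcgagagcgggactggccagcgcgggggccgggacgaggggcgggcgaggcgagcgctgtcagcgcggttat
Pnpla5 and Fads3 held 2 copies each, Pnpla3 held 1 and Chrna4 none. The pentamer, searched on both strands, was in 33.8% of the 32851 windows of this length, and it was in a window of 37.5% of all genes. Of the 22 fatty acid synthesis genes with a window, 16 held it. Among those called, 8 of 11 held it, so the called members did not stand out in this list. A match describes these letters only and does not show that a factor binds there.

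**Figure D3:**
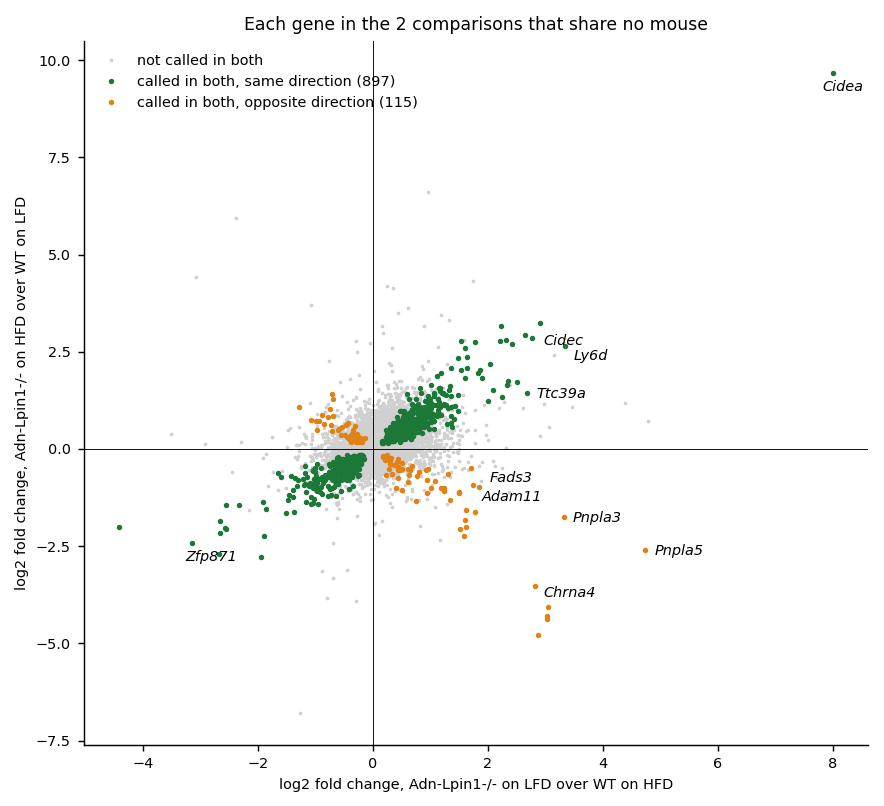
Log2 fold change of each tested gene in Adn-Lpin1-/- on LFD over WT on HFD (horizontal) and in Adn-Lpin1-/- on HFD over WT on LFD (vertical). Green points are the 897 genes called in both in the same direction, orange points the 115 called in opposite directions, and grey points the rest.

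Genes that build and coat lipid droplets rose more often than they fell. Of 31 tested genes of lipid droplets and triglyceride storage, 13 were called higher in Adn-Lpin1-/- LFD and 1 lower, with a median log2 fold change of 0.40 against 0.004 over all genes tested. The list had 45.2% of its members called, against 20.6% of all genes tested. Plin4, a perilipin that coats droplets, was 51, 77.1, 31.4, 104 and 112 CPM in the Adn-Lpin1-/- LFD mice and 29.4, 14.2, 21, 36.5 and 8.18 CPM in the WT HFD mice (log2 fold change 1.78, SE 0.45, edgeR adjusted p = 0.00858), with overlap of mouse 3 of the knockout and mouse 4 of WT HFD. Mogat1, an acyltransferase for monoacylglycerol, had a log2 fold change of 2.41 (edgeR adjusted p = 0.0057). Dgat1, which adds the last acyl chain to triglyceride, differed little in size, at 31.5, 26.7, 25.3, 29.1 and 24.4 CPM in the Adn-Lpin1-/- LFD mice and 21.9, 20.7, 20.2, 21 and 22.6 CPM in the WT HFD mice (log2 fold change 0.37, SE 0.07, edgeR adjusted p = 0.000893), and the groups were apart. Its counterpart Dgat2 was the member that was lower, with a log2 fold change of -0.31 (edgeR adjusted p = 0.00366).

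The other lipin genes of this list, Lpin2 and Lpin3, were called higher with log2 fold changes of 0.52 and 0.37, as were the acyltransferase Agpat2 (0.43), the lipase coactivator Abhd5 (0.27) and the fatty acid binding proteins Fabp1 (0.32), Fabp4 (0.79) and Fabp5 (2.88). Fabp5 was 59.5, 71.9, 207, 68.5 and 19.2 CPM in the Adn-Lpin1-/- LFD mice and 7.2, 8.35, 8.32, 11.6 and 22.5 CPM in the WT HFD mice (log2 fold change 2.88, SE 0.52, edgeR adjusted p = 0.00064). Mouse 3 of the knockout was the highest and mouse 5 overlapped WT HFD. In the second comparison Fabp5 was lower in Adn-Lpin1-/- HFD, with a log2 fold change of -4.78 (edgeR adjusted p = 1.72e-05), so that it too was higher on the LFD in both. Fewer members were called without mouse 2 of WT HFD, 7 higher and 1 lower. The fatty acid translocase Cd36 and the transcription factor Pparg were not called here, with log2 fold changes of 1.28 (edgeR adjusted p = 0.146) and 0.34 (edgeR adjusted p = 0.59), and they were 2.18 (edgeR adjusted p = 0.0175) and 1.26 (edgeR adjusted p = 0.0324) in the second comparison.

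Of 26 genes of fatty acid synthesis, 13 were called higher in Adn-Lpin1-/- LFD and none lower, with a median log2 fold change of 0.83. That is 50% of the list, against 20.6% of all genes tested. Scd1, the desaturase that makes oleate and palmitoleate, was 17863, 26359.6, 24302, 23808 and 22728 CPM in the Adn-Lpin1-/- LFD mice and 8761, 8262, 5787, 13242 and 4505 CPM in the WT HFD mice (log2 fold change 1.5, SE 0.36, edgeR adjusted p = 0.00527). G6pdx, which makes NADPH in the pentose phosphate pathway, was 10.4, 11.3, 20.5, 8.56 and 6.79 CPM in the Adn-Lpin1-/- LFD mice and 4.38, 3.33, 3.87, 4.81 and 3.9 CPM in the WT HFD mice (log2 fold change 1.5, SE 0.28, edgeR adjusted p = 0.000822). The other called members were the NADPH producers Me1 (1.5) and Pgd (0.98), the acetyl-CoA producers Acly (0.88) and Acss2 (0.75), the acetyl-CoA carboxylase Acacb (1.34), the elongases Elovl3 (0.83), Elovl5 (1.24) and Elovl6 (1.08), the lipogenic protein Thrsp (0.84), and Fads3 and Pnpla3 given above.

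Fasn, the fatty acid synthase, was 894, 1791, 882, 859.8 and 1622 CPM in the Adn-Lpin1-/- LFD mice and 541, 499, 392, 681 and 773 CPM in the WT HFD mice. All 5 knockout mice lay above all WT HFD mice, but the test missed the threshold (log2 fold change 1.07, SE 0.40, edgeR adjusted p = 0.0617). The fit of the 2 groups alone (edgeR adjusted p = 0.00996), voom with quality weights (adjusted p = 0.0284) and voom with pools (adjusted p = 0.00109) called it, with log2 fold changes of 1.07 to 1.08. The pools repeat the same mice, so the p of voom with pools counts mice more than once. The transcription factors that drive these genes were not called, with log2 fold changes of -0.02 (edgeR adjusted p = 0.954) for Srebf1 and 0.23 (edgeR adjusted p = 0.212) for Mlxipl, which encodes ChREBP. With the diets exchanged, none of the 26 genes was called higher and 10 were called lower in Adn-Lpin1-/- HFD than in WT LFD, with a median of -0.30. Among the 13 called members, 6, namely Acss2, Scd1, Elovl6, Fads3, G6pdx and Pnpla3, were called in opposite directions in the 2 comparisons, and none was called in the same direction. Against the shared WT LFD group, the log2 fold change of Scd1 was 0.51 in Adn-Lpin1-/- LFD and -0.99 in WT HFD, and that of Me1 was 0.62 and -0.88.

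Cholesterol genes were called in the lower direction only. Of 24 tested, none was called higher and 4 were called lower, with a median of -0.18. The share called was 16.7%, against 20.6% of all genes tested in either direction and 11.1% lower. In the second comparison 12 of the 24 were called lower and none higher, with a median of -0.39. Stard4, a carrier of cholesterol within the cell, was 58.2, 82.9, 71.4, 71.3 and 68 CPM in the Adn-Lpin1-/- LFD mice and 88.1, 120.3, 115, 109 and 91 CPM in the WT HFD mice (log2 fold change -0.57, SE 0.12, edgeR adjusted p = 0.0017). Mvk, the mevalonate kinase, was 11.1 ± 1.19 CPM in Adn-Lpin1-/- LFD and 18.6 ± 4.63 CPM in WT HFD (SD, n = 5 each; log2 fold change -0.74, SE 0.19, edgeR adjusted p = 0.00906), and Fdft1, the squalene synthase, was 64.9 ± 13 CPM in Adn-Lpin1-/- LFD and 90 ± 14.6 CPM in WT HFD (SD, n = 5 each; log2 fold change -0.47, SE 0.13, edgeR adjusted p = 0.0126). The isomerase Idi1 had a log2 fold change of -1.33 (edgeR adjusted p = 0.0142).

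Few genes of fatty acid oxidation were called. Of 40 tested, 3 were called higher and none lower, with a median of 0.11 and a range of -0.35 to 0.89 among those not called. The share called was 7.5%, against 20.6% of all genes tested. Pdk4, a kinase that turns off pyruvate dehydrogenase, was 7.44, 25, 5.45, 7.33 and 10.3 CPM in the Adn-Lpin1-/- LFD mice and 2.81, 1.77, 2.25, 3.46 and 0.787 CPM in the WT HFD mice (log2 fold change 2.33, SE 0.58, edgeR adjusted p = 0.00743), with no overlap. The peroxisomal thiolase Acaa1b and the fatty acid hydroxylase Cyp4a32 had log2 fold changes of 0.74 (edgeR adjusted p = 0.0285) and 0.76 (edgeR adjusted p = 0.0314). Acaa1b was not called without mouse 2, 4 or 5 of the knockout or mouse 2, 3 or 5 of WT HFD (edgeR adjusted p between 0.0516 and 0.0846), and Cyp4a32 was not called without mouse 1, 2 or 4 of the knockout or mouse 2, 3 or 5 of WT HFD (edgeR adjusted p between 0.0510 and 0.0956). Both have close paralogs that could share reads. Only 1 member was called without mouse 2 of the knockout or mouse 2 or 3 of WT HFD, and 5 were without mouse 3 of the knockout. Cpt1a, which admits fatty acids to mitochondria, was not called (0.11 at edgeR adjusted p = 0.637).

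**Figure D4:**
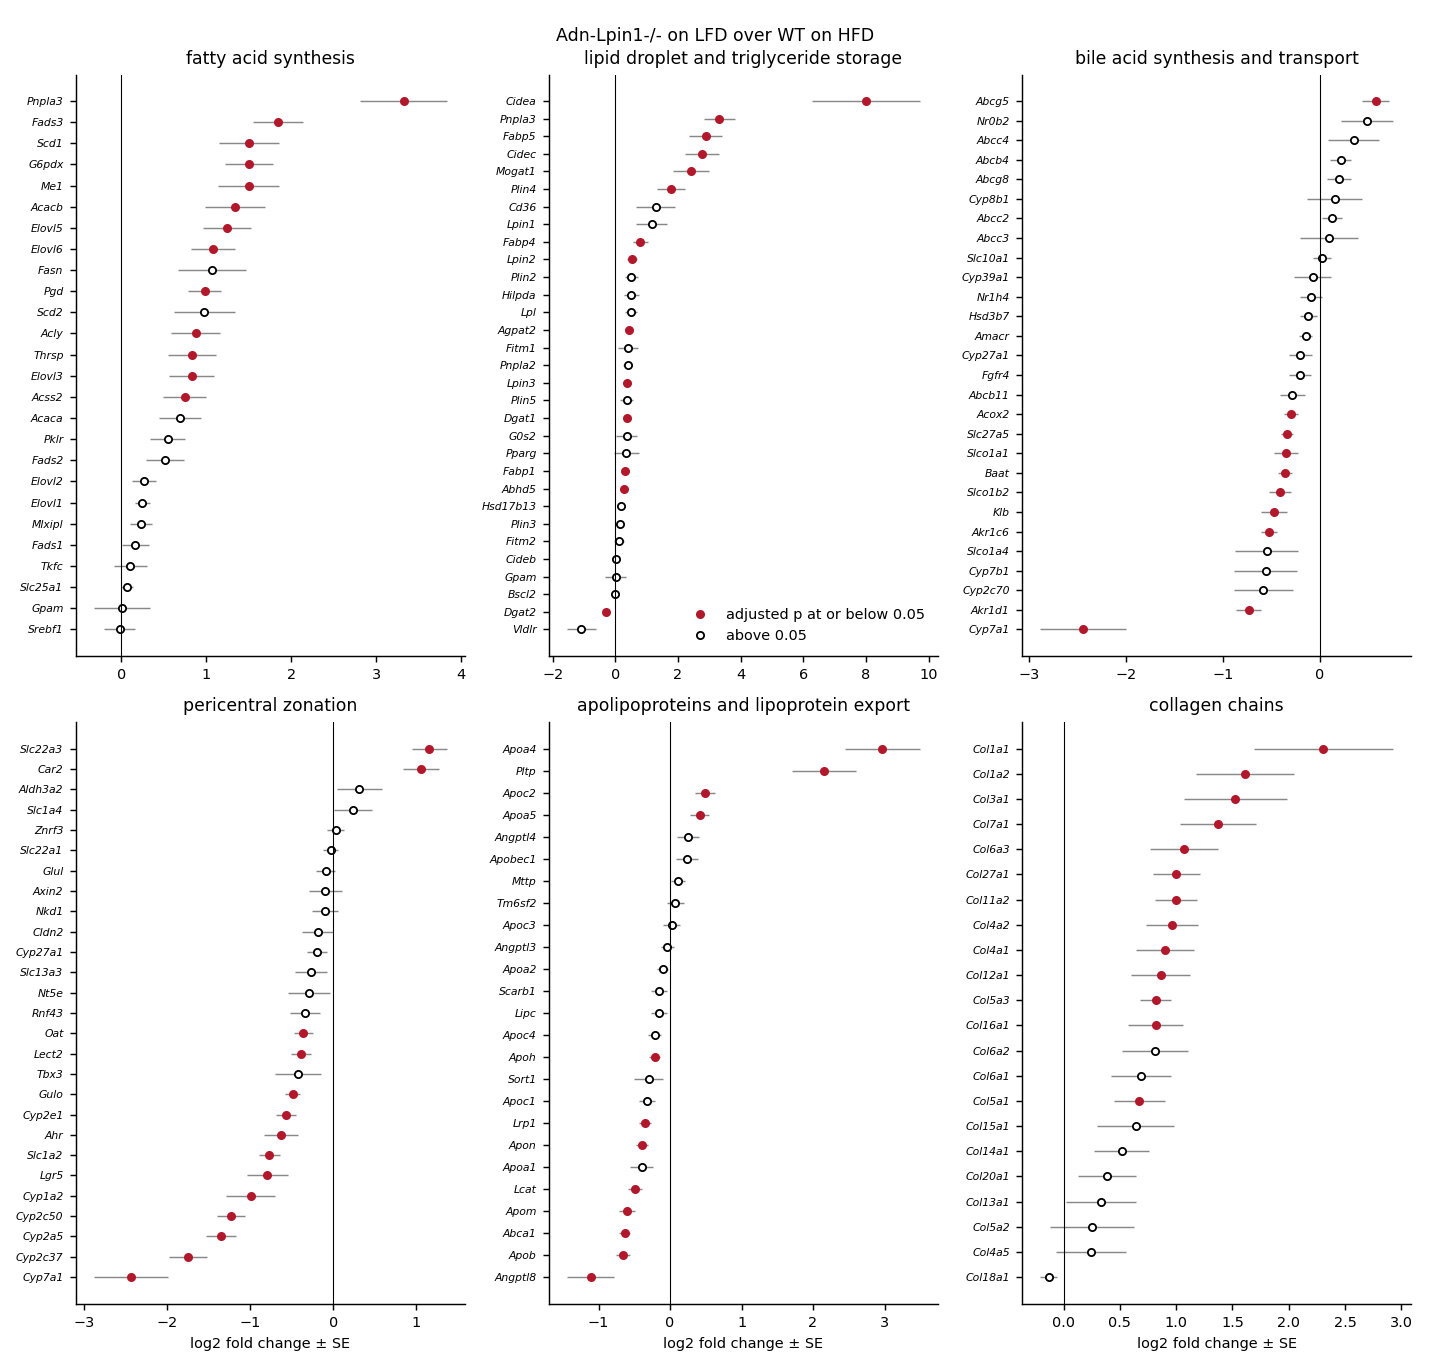
Log2 fold change with its standard error for each tested member of 6 gene lists in Adn-Lpin1-/- on LFD over WT on HFD, with called genes in red and the others open. Fatty acid synthesis and collagen genes lie almost wholly to the right of 0, and most pericentral genes to the left.

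In glucose metabolism, 5 of 28 genes were called higher and 1 lower, with a median of 0.14. This is a share of 21.4%, close to the 20.6% of all genes tested. Pck1, the gluconeogenic carboxykinase, was 6100.2, 6332, 5074, 5849 and 3603 CPM in the Adn-Lpin1-/- LFD mice and 2750.0, 1821, 1245, 3611 and 2603 CPM in the WT HFD mice (log2 fold change 1.16, SE 0.30, edgeR adjusted p = 0.00932), and the only overlap was between mouse 5 of the knockout and mouse 4 of WT HFD. G6pc, which releases free glucose, had a log2 fold change of 1.24 (edgeR adjusted p = 0.0108). Gpi1, a glycolytic isomerase, was 295, 272, 264, 235 and 310.1 CPM in the Adn-Lpin1-/- LFD mice and 167, 152, 161, 192 and 188 CPM in the WT HFD mice (log2 fold change 0.68, SE 0.14, edgeR adjusted p = 0.00163). Ppp1r3c, another glycogen-targeting subunit, was the member called lower (-0.90 at edgeR adjusted p = 0.0485). In the second comparison Ppp1r3g, Pck1, G6pc and Gpi1 had log2 fold changes of 0.73 (edgeR adjusted p = 0.144), -0.22 (edgeR adjusted p = 0.627), -0.72 (edgeR adjusted p = 0.111) and 0.02 (edgeR adjusted p = 0.928), none of which was called.

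In insulin signalling, 3 of 29 genes were called higher and 5 lower, with a median of -0.04. This is a share of 27.6%, against 20.6% of all genes tested. Insr, the insulin receptor, was 83.6, 94.2, 91.9, 105 and 81.7 CPM in the Adn-Lpin1-/- LFD mice and 127, 141, 139, 142 and 134 CPM in the WT HFD mice (log2 fold change -0.58, SE 0.08, edgeR adjusted p = 5.06e-05). The lowest WT HFD mouse exceeded the highest knockout mouse. Rictor, a subunit of mTOR complex 2, was 14.8 ± 2.24 CPM in Adn-Lpin1-/- LFD and 23.1 ± 2.14 CPM in WT HFD (SD, n = 5 each; log2 fold change -0.64, SE 0.11, edgeR adjusted p = 0.000615), and Pdpk1, which phosphorylates AKT, was 26.7 ± 3.4 CPM in Adn-Lpin1-/- LFD and 33.3 ± 2.96 CPM in WT HFD (SD, n = 5 each; log2 fold change -0.32, SE 0.08, edgeR adjusted p = 0.0077). The regulatory subunit Pik3r1 and the kinase Akt2 were the other members called lower (-0.39 and -0.19). The members called higher were Igfbp1, Sik1 and Ppargc1a, genes of the fasted liver, with log2 fold changes of 1.66 (edgeR adjusted p = 0.021), 1.47 (edgeR adjusted p = 0.0144) and 0.59 (edgeR adjusted p = 0.0136). Insr and Rictor were also called lower in Adn-Lpin1-/- HFD than in WT LFD (-0.26 at edgeR adjusted p = 0.0219 and -0.91 at edgeR adjusted p = 3.41e-05).

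Bile acid genes were called lower in Adn-Lpin1-/- LFD more often than higher, with 9 of 28 called lower and 1 higher and a median of -0.20. Calls made up 35.7% of this list, against 20.6% of all genes tested. Cyp7a1, the rate-limiting enzyme of bile acid synthesis, lies at chr4:6265612-6275633 and was 9.6, 16.7, 50.7, 34.5 and 20.1 CPM in the Adn-Lpin1-/- LFD mice and 102, 115, 189.8, 133 and 175 CPM in the WT HFD mice (log2 fold change -2.44, SE 0.45, edgeR adjusted p = 0.000733). The highest knockout mouse was at 50.7 CPM and the lowest WT HFD mouse at 102 CPM. Against the shared WT LFD group, Cyp7a1 was -1.38 in Adn-Lpin1-/- LFD (edgeR adjusted p = 0.0374) and 1.06 in WT HFD on the log2 scale. The latter was not called (edgeR adjusted p = 0.226). Akr1d1, a reductase of the steroid ring, was 76.3 ± 4.27 CPM in Adn-Lpin1-/- LFD and 127 ± 24.5 CPM in WT HFD (SD, n = 5 each; log2 fold change -0.74, SE 0.13, edgeR adjusted p = 0.000466), and Akr1c6, a hydroxysteroid dehydrogenase, was 638, 594, 606, 571 and 616 CPM in the Adn-Lpin1-/- LFD mice and 876, 973, 939, 773 and 797 CPM in the WT HFD mice (log2 fold change -0.53, SE 0.08, edgeR adjusted p = 0.0002).

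The other members called lower were the conjugating enzymes Baat (-0.36) and Slc27a5 (-0.34), the peroxisomal oxidase Acox2 (-0.30), the uptake carriers Slco1a1 (-0.35) and Slco1b2 (-0.41), and Klb, the coreceptor for the gut hormone FGF15 (-0.47). Abcg5, which exports sterols to bile, was the member called higher (0.58). Cyp8b1, which sets the share of cholic acid, and Nr0b2, which encodes the repressor SHP, were not called (0.15 at edgeR adjusted p = 0.744 and 0.49 at edgeR adjusted p = 0.207).

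Genes of the pericentral zone were called lower more often than higher. Of 27 tested, 12 were called lower and 2 higher, with a median of -0.35 (51.9% called, against 20.6% of all genes tested). Cyp2c37 was 121, 51.2, 58.4, 62.3 and 65.9 CPM in the Adn-Lpin1-/- LFD mice and 269, 316, 256, 198 and 172 CPM in the WT HFD mice (log2 fold change -1.75, SE 0.23, edgeR adjusted p = 2.57e-05). Cyp2a5 was 423, 201, 297, 262 and 433 CPM in the Adn-Lpin1-/- LFD mice and 784, 816, 958, 837 and 734 CPM in the WT HFD mice (log2 fold change -1.35, SE 0.18, edgeR adjusted p = 3.33e-05). Cyp2c50 was 269 ± 72 CPM in Adn-Lpin1-/- LFD and 630.2 ± 120.3 CPM in WT HFD (SD, n = 5 each; log2 fold change -1.23, SE 0.17, edgeR adjusted p = 5.06e-05), and Cyp2e1, which oxidizes ethanol, was 6501 ± 754 CPM in Adn-Lpin1-/- LFD and 9662 ± 1426 CPM in WT HFD (SD, n = 5 each; log2 fold change -0.57, SE 0.12, edgeR adjusted p = 0.00242). These P450 enzymes have close paralogs, and how reads were split among them cannot be told from the counts.

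The pericentral genes outside the P450 family varied. The glutamate transporter Slc1a2, the aminotransferase Oat, the Wnt target Lgr5, the secreted protein Lect2, the vitamin C enzyme Gulo and the aryl hydrocarbon receptor Ahr were called lower, with log2 fold changes of -0.77, -0.36, -0.80, -0.39, -0.49 and -0.63, and the transporter Slc22a3 and the carbonic anhydrase Car2 higher, with 1.15 and 1.06. Glul and Axin2, which mark the innermost zone and Wnt activity, were not called (-0.09 at edgeR adjusted p = 0.61 and -0.10 at edgeR adjusted p = 0.76). Without mouse 2 or mouse 4 of the knockout 7 pericentral members were called lower and 2 higher. In the second comparison 3 of the 27 were called lower and 5 higher, with a median of -0.01. Cyp2c37, Cyp2a5 and Cyp2c50 were not called there (0.30 at edgeR adjusted p = 0.334, -0.20 at edgeR adjusted p = 0.44 and 0.15 at edgeR adjusted p = 0.529).

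Xenobiotic genes overlap this list, and 9 of 31 were called lower and 2 higher, with a median of -0.23. In all 35.5% were called, against 20.6% of all genes tested. The 2 called higher were Cyp3a11 (1.36) and Cyp3a16 (1.38), P450 enzymes induced through the pregnane X receptor. The Cyp2b genes Cyp2b9, Cyp2b10 and Cyp2b13 were not called (-3.08 at edgeR adjusted p = 0.0702, -1.08 at edgeR adjusted p = 0.297 and -2.37 at edgeR adjusted p = 0.097), and were called higher in Adn-Lpin1-/- HFD than in WT LFD (4.43 at edgeR adjusted p = 0.0143, 3.70 at edgeR adjusted p = 0.00334 and 5.93 at edgeR adjusted p = 0.00164). In the periportal zone, 6 of 25 genes were called lower and 3 higher, with a median of -0.09. That is 36%, against 20.6% of all genes tested. The 3 higher were Apoa4, Pck1 and Sds, a serine dehydratase (0.87 at edgeR adjusted p = 0.0478). Ptprd, a receptor phosphatase, was 127 ± 14 CPM in Adn-Lpin1-/- LFD and 187 ± 17.9 CPM in WT HFD (SD, n = 5 each; log2 fold change -0.56, SE 0.09, edgeR adjusted p = 0.000182), and Hsd17b6, a steroid dehydrogenase, had a log2 fold change of -0.98 (edgeR adjusted p = 0.00451).

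Genes of lipoproteins were called in both directions, 4 higher and 8 lower of 25, with a median of -0.16. With 48% called, the list exceeded the 20.6% of all genes tested. Apob, the structural protein of very low density lipoprotein, was 2522, 3271, 2726, 3126 and 2928 CPM in the Adn-Lpin1-/- LFD mice and 4084, 4827, 4961, 4859.8 and 4248 CPM in the WT HFD mice (log2 fold change -0.66, SE 0.10, edgeR adjusted p = 0.00011). Abca1, which exports cholesterol to apolipoprotein A1, was 125 ± 12.8 CPM in Adn-Lpin1-/- LFD and 195 ± 17.1 CPM in WT HFD (SD, n = 5 each; log2 fold change -0.64, SE 0.08, edgeR adjusted p = 1.98e-05). Both were also lower in Adn-Lpin1-/- HFD than in WT LFD (-0.41 at edgeR adjusted p = 0.00526 and -0.40 at edgeR adjusted p = 0.0016). Pltp, the phospholipid transfer protein, was higher, with a log2 fold change of 2.15 (edgeR adjusted p = 0.00207), and so were Apoa5 (0.42) and Apoc2 (0.49). Angptl8, an inhibitor of lipoprotein lipase, was lower (-1.11 at edgeR adjusted p = 0.0218), with Apom (-0.60), Lcat (-0.49), Apon (-0.39), Lrp1 (-0.35) and Apoh (-0.22).

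Acute phase genes, most of which encode secreted proteins, were also called lower more often than higher, with 8 of 28 called lower and 2 higher and a median of -0.28. The calls came to 35.7% of the list, against 20.6% of all genes tested. Itih4, an inhibitor that binds hyaluronan, was 1280.0, 1254, 1294, 1262 and 1191 CPM in the Adn-Lpin1-/- LFD mice and 2141, 2518, 2088, 1853 and 2529 CPM in the WT HFD mice (log2 fold change -0.83, SE 0.09, edgeR adjusted p = 1.01e-05). Saa4, a serum amyloid protein of lipoproteins, was 327 ± 81.2 CPM in Adn-Lpin1-/- LFD and 644 ± 75.5 CPM in WT HFD (SD, n = 5 each; log2 fold change -0.98, SE 0.17, edgeR adjusted p = 0.000433), and Steap4, a metalloreductase, was 100.3, 105, 101, 133 and 97.9 CPM in the Adn-Lpin1-/- LFD mice and 137, 190.2, 177, 158 and 156 CPM in the WT HFD mice (log2 fold change -0.61, SE 0.12, edgeR adjusted p = 0.00177). Saa4 and Steap4 were called in the opposite direction in Adn-Lpin1-/- HFD against WT LFD (0.48 at edgeR adjusted p = 0.0438 and 0.48 at edgeR adjusted p = 0.00966), so both were lower on the LFD in each comparison. Counting Saa3 and Apcs, 4 members were called in opposite directions and 1, the endotoxin receptor Cd14, in the same direction.

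Hepatocyte transcription factors were called only in the lower direction, 5 of 21, with a median of -0.25. Their share called was 23.8%, against 20.6% of all genes tested in either direction and 11.1% lower. Rxra, the partner of many nuclear receptors, was 493, 473, 511, 515 and 501 CPM in the Adn-Lpin1-/- LFD mice and 645, 653, 632, 659.7 and 604 CPM in the WT HFD mice (log2 fold change -0.36, SE 0.05, edgeR adjusted p = 0.000139). Nr5a2, which activates Cyp7a1, was 32.4 ± 2.85 CPM in Adn-Lpin1-/- LFD and 48.1 ± 7.64 CPM in WT HFD (SD, n = 5 each; log2 fold change -0.57, SE 0.10, edgeR adjusted p = 0.00052), and Onecut2 was 86.2 ± 4.63 CPM in Adn-Lpin1-/- LFD and 127 ± 28 CPM in WT HFD (SD, n = 5 each; log2 fold change -0.56, SE 0.13, edgeR adjusted p = 0.00378). Foxa3 and Cebpa were the other members called (-0.68 and -0.24), and Hnf4a was not (-0.22 at edgeR adjusted p = 0.257). Among hepatocyte markers, Cyp2e1, Serpina1a and Ttc36 were called lower (log2 fold changes -0.57, -0.56 and -0.39) and Alb was not (-0.25 at edgeR adjusted p = 0.0883). Tat, the 1 marker with a positive log2 fold change, was not called either (0.99 at edgeR adjusted p = 0.0957). Ttc36 was not called without mouse 2, 3 or 5 of the knockout or mouse 1 or 5 of WT HFD (edgeR adjusted p between 0.0529 and 0.0775). The median of the 7 hepatocyte markers was -0.40, with 42.9% called, against 20.6% of all genes tested. The part of this lower level in the other hepatocyte genes was not tested.

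Among clock genes 5 of 19 were called lower and 1 higher, with a median of -0.03 (31.6% called, against 20.6% of all genes tested). Clock itself was 14.3, 15.1, 14.4, 16.1 and 12.3 CPM in the Adn-Lpin1-/- LFD mice and 27.4, 24, 26.5, 27.4 and 18.1 CPM in the WT HFD mice (log2 fold change -0.77, SE 0.12, edgeR adjusted p = 0.000173). Its partner Arntl was not called (0.35 at edgeR adjusted p = 0.523), the clock output regulators Nr1d2 and Tef were lower (-0.41 at edgeR adjusted p = 0.00238 and -0.32 at edgeR adjusted p = 0.00462), and the period gene Per1 was higher (0.76 at edgeR adjusted p = 0.0403). Only 3 members, all lower, were called without mouse 2 of WT HFD. The hour of sacrifice is not in the labels. Of genes that growth hormone keeps male-biased, 3 of 34 were called higher and 6 lower, with a median of -0.27. That is 26.5%, against 20.6% of all genes tested, 9.55% higher and 11.1% lower. The near-identical pair Cyp4a12a and Cyp4a12b, which hydroxylate fatty acids, had log2 fold changes of 1.59 (edgeR adjusted p = 0.000168) and 1.62 (edgeR adjusted p = 4.07e-06). In the second comparison they were -0.50 (edgeR adjusted p = 0.14) and -1.58 (edgeR adjusted p = 8.94e-06), so Cyp4a12b was higher on the LFD in both. Susd4 was 19.7 ± 4.79 CPM in Adn-Lpin1-/- LFD and 38.2 ± 7.1 CPM in WT HFD (SD, n = 5 each; log2 fold change -0.96, SE 0.16, edgeR adjusted p = 0.000374). Of female-biased genes, 3 of 20 were called higher and 2 lower, with a median of 0.07, among them Ntrk2 above, Cyp2a4 (-1.05 at edgeR adjusted p = 0.00022) and Atp6v0d2, a proton pump subunit (-1.86 at edgeR adjusted p = 6.42e-05). Here 25% were called, against the same 20.6%.

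**Figure D5:**
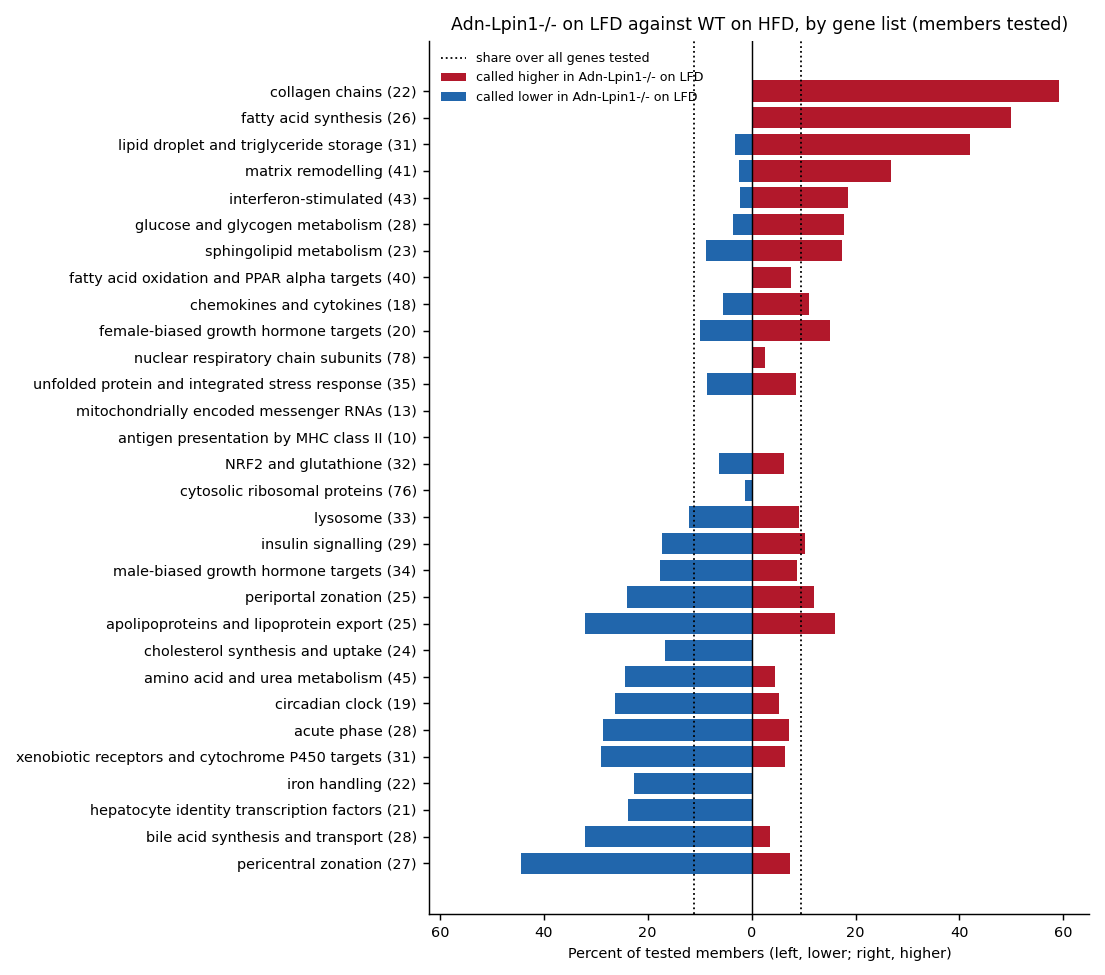
Percent of the tested members of each gene list called higher (red, right) or lower (blue, left) in Adn-Lpin1-/- on LFD than in WT on HFD, with the number of members tested in brackets. Dotted lines mark 9.55% higher and 11.1% lower over all genes tested; collagen chains and fatty acid synthesis lead on the right and pericentral zonation on the left.

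Collagen chains, fibrillar and basement membrane ones among them, were called in the higher direction only. Of 22 tested chains, 13 were called higher and none lower, with a median log2 fold change of 0.82, and 10 of the 13 were also called higher in Adn-Lpin1-/- HFD than in WT LFD. The 13 made up 59.1% of the chains, against 20.6% of all genes tested. Col1a1, the main fibrillar chain, was 11.2, 78.1, 21.1, 20.3 and 37.1 CPM in the Adn-Lpin1-/- LFD mice and 3.83, 5.51, 8.2, 11.8 and 4.55 CPM in the WT HFD mice (log2 fold change 2.31, SE 0.62, edgeR adjusted p = 0.0122). Mouse 2 of the knockout was the highest, and mouse 1 overlapped WT HFD. The fibrillar Col5a2 and the basement membrane chains Col4a5, Col15a1 and Col18a1 were among the 9 not called (0.25 at edgeR adjusted p = 0.677, 0.24 at edgeR adjusted p = 0.621, 0.64 at edgeR adjusted p = 0.193 and -0.13 at edgeR adjusted p = 0.243). With the GC trend removed, 11 chains were called higher and 1 lower. Col5a3 was 117, 94.2, 113, 81.5 and 136 CPM in the Adn-Lpin1-/- LFD mice and 69.1, 59.8, 60.9, 56.4 and 61.4 CPM in the WT HFD mice (log2 fold change 0.82, SE 0.14, edgeR adjusted p = 0.000344), with no overlap. Col11a2 was 2.42 ± 0.505 CPM in Adn-Lpin1-/- LFD and 1.21 ± 0.251 CPM in WT HFD (SD, n = 5 each; log2 fold change 1.00, SE 0.19, edgeR adjusted p = 0.000877), and Col27a1 was 87 ± 21.9 CPM in Adn-Lpin1-/- LFD and 43.5 ± 15.6 CPM in WT HFD (SD, n = 5 each; log2 fold change 1.00, SE 0.21, edgeR adjusted p = 0.0022).

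The number of collagen chains called rested on mouse 2 of the knockout, without which 5 were called. Without it Col1a1, Col1a2 and Col3a1 missed the threshold with log2 fold changes of 1.73, 1.22 and 1.13 (edgeR adjusted p = 0.0513, 0.0525 and 0.0917), and Col3a1 was also not called without mouse 5 of the knockout or mouse 1, 2 or 5 of WT HFD (edgeR adjusted p up to 0.0597). With all mice, Col1a2 and Col3a1 had log2 fold changes of 1.61 (edgeR adjusted p = 0.013) and 1.53 (edgeR adjusted p = 0.0234). Basement membrane chains Col4a1 and Col4a2 had 0.90 (edgeR adjusted p = 0.018) and 0.96 (edgeR adjusted p = 0.00595). Of 41 matrix remodelling genes, 11 were called higher and 1 lower, with a median of 0.59, and without mouse 2 of the knockout 6 and 1. With all mice 29.3% were called, against 20.6% of all genes tested. Ltbp2, which binds fibrillin fibres, was 1.3 ± 0.382 CPM in Adn-Lpin1-/- LFD and 0.507 ± 0.199 CPM in WT HFD (SD, n = 5 each; log2 fold change 1.36, SE 0.34, edgeR adjusted p = 0.00768), and Efemp2, needed for elastic fibres, was 4.8 ± 1.26 CPM in Adn-Lpin1-/- LFD and 2.97 ± 0.336 CPM in WT HFD (SD, n = 5 each; log2 fold change 0.69, SE 0.18, edgeR adjusted p = 0.00877). Ltbp2 exceeded 1 CPM in knockout mice only, so it was tested through the groups where it was high. The member called lower was the protease Mmp19 (-0.37 at edgeR adjusted p = 0.00189).

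Markers of other cell types moved with these genes to different degrees, and in bulk tissue fewer cells of a type cannot be told from less RNA per cell. Of 14 stellate cell markers, the collagen genes Col1a1, Col1a2 and Col3a1 and the receptor Pdgfrb were called higher and none lower. The median of the list was 0.13, with 28.6% called, against 20.6% of all genes tested. Leaving out mouse 2 of the knockout left none called by edgeR, and leaving out its mouse 5 or mouse 2 or 5 of WT HFD left 2. The summed level of the list was 402 to 699 CPM in the knockout and 370.3 to 493 CPM in WT HFD. The stellate cell genes Lrat, which stores retinol as esters, and Reln were not called (0.14 at edgeR adjusted p = 0.742 and -0.32 at edgeR adjusted p = 0.21).

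Of 13 tested markers of lipid-associated and recruited macrophages, 5 were called higher and 1 lower, with a median of 0.97. These were 46.2% of the markers, against 20.6% of all genes tested. The summed level was 139 to 299.6 CPM in the knockout and 53.7 to 81.8 CPM in WT HFD, without overlap, and in the knockout Fabp5 alone was 19.2 to 207 CPM and Spp1 26.7 to 68.4 CPM. Cd9, a tetraspanin, was 17.4, 16.5, 20.2, 14.3 and 16.4 CPM in the Adn-Lpin1-/- LFD mice and 8.68, 9.66, 6.29, 8.93 and 9.84 CPM in the WT HFD mice (log2 fold change 0.97, SE 0.14, edgeR adjusted p = 9.28e-05). Spp1, which encodes osteopontin and is also made by cholangiocytes, was 26.7, 68.4, 39.2, 42.8 and 63.2 CPM in the Adn-Lpin1-/- LFD mice and 25.5, 8.12, 26.6, 29.2 and 15.6 CPM in the WT HFD mice (log2 fold change 1.19, SE 0.33, edgeR adjusted p = 0.0136). Gpnmb, a glycoprotein of lipid-laden macrophages, had a log2 fold change of 2.65 (edgeR adjusted p = 0.0146) at no more than 1.39 CPM in any mouse. Atp6v0d2 went the other way, and Cd68 was not called (log2 fold change 0.37, SE 0.20, edgeR adjusted p = 0.192). In Adn-Lpin1-/- HFD against WT LFD, 6 of the 13 were called higher and 2 lower, against 12.2% and 11.8% of all genes tested. Those higher were Gpnmb, Lgals3, Mmp12, Trem2, Ccr2 and Cd68 (1.04 at edgeR adjusted p = 0.00132), and those lower Cd9 and Fabp5.

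None of 13 markers of Kupffer cells, the resident macrophages, was called by edgeR with all mice. At an unadjusted p under 0.05 there was 1, Clec1b, which edgeR with all mice did not call (log2 fold change 0.45, SE 0.17, edgeR adjusted p = 0.0658). It was called by DESeq2 and voom, and by edgeR with the GC trend removed (log2 fold change 0.62, edgeR adjusted p = 0.0189) and without mouse 1 or 4 of the knockout or mouse 5 of WT HFD (edgeR adjusted p between 0.0374 and 0.04999). Of the 13, 10 were positive, with a median of 0.34. Of 14 sinusoidal endothelial markers 3 were called higher, with a median of 0.34. This share of 21.4% compares with 20.6% of all genes tested in either direction and 9.55% higher. Stab1, a scavenger receptor, was 56.2, 59.7, 57.5, 55.9 and 61.7 CPM in the Adn-Lpin1-/- LFD mice and 36.9, 31.8, 41.7, 34.2 and 30.4 CPM in the WT HFD mice (log2 fold change 0.73, SE 0.10, edgeR adjusted p = 5.71e-05), Eng had 0.65 (edgeR adjusted p = 0.00495) and Lyve1 1.04 (edgeR adjusted p = 0.0139), the last of which was not called without mouse 5 of the knockout (log2 fold change 0.74, edgeR adjusted p = 0.0561). The number called was 5 of 14 without mouse 3 of WT HFD. All 3 were called higher in the knockout of the second comparison too (0.61, 0.61 and 0.85). Defining adipocyte genes were at or near 0, with Adipoq at 0 to 0.746 CPM, Lep at 0 to 0.0728 CPM and Plin1 at 0 to 0.0728 CPM in the 10 mice. The summed level of the adipocyte list, 1502 to 3410.0 CPM in the knockout and 2287 to 3593 CPM in WT HFD, comes mainly from Car3, a carbonic anhydrase that hepatocytes also make. Of 6 adipocyte markers tested only Cidea and Fabp4 were called, and Fabp4 was not called without mouse 2 or 5 of the knockout or mouse 2, 3 or 5 of WT HFD (edgeR adjusted p between 0.0501 and 0.0895). The adipocyte list had 33.3% called, against 20.6% of all genes tested. Of 6 cholangiocyte markers tested Spp1 was called, or 16.7%. Of 5 mesothelial, 3 lymphocyte and 1 neutrophil markers, edgeR, DESeq2 and voom called none, and 1 mesothelial marker had an unadjusted p under 0.05. Of the mesothelial and cholangiocyte marker Krt19, a keratin, the log2 fold change was 1.02 (edgeR adjusted p = 0.0887), and that of the lymphocyte coreceptor Cd4 was -0.44 (edgeR adjusted p = 0.215) and of the neutrophil receptor Csf3r 0.42 (edgeR adjusted p = 0.198). No read was found in any of the 10 libraries for 4 of 8 exocrine pancreas markers.

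Immune genes gave a mixed picture. Of 43 interferon-stimulated genes, 8 were called higher and 1 lower, with a median of 0.10. The share called, 20.9%, was close to the 20.6% of all genes tested. Oas2, which senses double-stranded RNA, was 7.48, 6.98, 7.27, 5.96 and 7.77 CPM in the Adn-Lpin1-/- LFD mice and 4.85, 3.57, 2.71, 3.18 and 3.82 CPM in the WT HFD mice (log2 fold change 0.97, SE 0.17, edgeR adjusted p = 0.000595). Oas1a, of a family with close copies, was 3.88 ± 0.89 CPM in Adn-Lpin1-/- LFD and 2.02 ± 0.195 CPM in WT HFD (SD, n = 5 each; log2 fold change 0.94, SE 0.19, edgeR adjusted p = 0.00159), and Bst2, which tethers viruses to the cell surface, was 133 ± 9.17 CPM in Adn-Lpin1-/- LFD and 98.8 ± 10.4 CPM in WT HFD (SD, n = 5 each; log2 fold change 0.43, SE 0.08, edgeR adjusted p = 0.00126). Oas1g, Oas3 and Oasl2 were also called higher (1.09, 1.02 and 0.74), and Isg15 and Ifit1 were not called (0.00 at edgeR adjusted p = 0.995 and -0.19 at edgeR adjusted p = 0.553).

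All 10 tested genes of antigen presentation by MHC class II had positive log2 fold changes, with a median of 0.53. With the 4 groups in 1 fit, edgeR, DESeq2 and voom called none. At an unadjusted p under 0.05 there were 2, and edgeR called 3 when only these 2 groups were fitted. H2-Aa was 12.3, 24.5, 21.6, 20.1 and 38.2 CPM in the Adn-Lpin1-/- LFD mice and 12, 15.7, 11.8, 12.5 and 16.5 CPM in the WT HFD mice (log2 fold change 0.77, SE 0.34, edgeR adjusted p = 0.112). Of 18 chemokine and cytokine genes, the inflammatory cytokine Il1b and the chemokine Cxcl14 were called higher and the neutrophil attractant Cxcl1 lower (1.4 at edgeR adjusted p = 0.03, 0.94 at edgeR adjusted p = 0.0356 and -0.98 at edgeR adjusted p = 0.0139). Il1b was not called without mouse 2 or 3 of the knockout or mouse 1, 2, 3 or 4 of WT HFD (edgeR adjusted p between 0.0533 and 0.0737), and Cxcl14 was not called without mouse 2 or 5 of the knockout or mouse 1, 2 or 5 of WT HFD (edgeR adjusted p between 0.0600 and 0.0995). Leaving out mouse 2 of the knockout, or mouse 1 or 2 of WT HFD, left 1 of the 18 called. With all mice the share called was 16.7%, below the 20.6% of all genes tested.

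Amino acid genes were lower more often than higher, 11 against 2 of 45, with a median of -0.10. Those called were 28.9% of the list, against 20.6% of all genes tested. Gnmt, the main methyltransferase of glycine, was 1416, 1075, 1232, 1231 and 1088 CPM in the Adn-Lpin1-/- LFD mice and 1818, 1601, 1668, 1755 and 1831 CPM in the WT HFD mice (log2 fold change -0.52, SE 0.10, edgeR adjusted p = 0.000958). Dbt, of the branched-chain ketoacid dehydrogenase, was 58.8 ± 4.69 CPM in Adn-Lpin1-/- LFD and 85 ± 4.99 CPM in WT HFD (SD, n = 5 each; log2 fold change -0.53, SE 0.08, edgeR adjusted p = 0.000205), and Glud1, the glutamate dehydrogenase, was 785 ± 30.9 CPM in Adn-Lpin1-/- LFD and 1012 ± 109.8 CPM in WT HFD (SD, n = 5 each; log2 fold change -0.37, SE 0.08, edgeR adjusted p = 0.00267). The number called was 6 without mouse 2 of the knockout, and 8 without its mouse 3 or 5 or mouse 2 of WT HFD. Iron genes were called in the lower direction only, 5 of 22, with a median of -0.09. Their share called was 22.7%, against 20.6% of all genes tested in either direction and 11.1% lower. Ireb2, which senses iron, was at 59.2, 53.1, 52.4, 54.5 and 53 CPM in the Adn-Lpin1-/- LFD mice and 78.5, 101, 85.1, 78.6 and 85.6 CPM in the WT HFD mice (log2 fold change -0.65, SE 0.09, edgeR adjusted p = 3.17e-05). Aco1, the related iron sensor, and Tmprss6, a protease that lowers hepcidin, had log2 fold changes of -0.26 (edgeR adjusted p = 0.0154) and -0.17 (edgeR adjusted p = 0.0322), the latter not called without mouse 1 or 3 of the knockout or mouse 1, 2 or 3 of WT HFD (edgeR adjusted p between 0.0516 and 0.0814). Only 2 iron genes were called without mouse 2 of WT HFD, and 3 without mouse 3 of the knockout or mouse 1 or 3 of WT HFD.

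Of 35 genes of the unfolded protein and integrated stress responses, 3 were called higher and 3 lower, a share close to the 20.6% of all genes tested, with a median of -0.02. Ern1, the stress sensor that splices Xbp1, was 47.9 ± 3.06 CPM in Adn-Lpin1-/- LFD and 76.9 ± 14.2 CPM in WT HFD (SD, n = 5 each; log2 fold change -0.68, SE 0.13, edgeR adjusted p = 0.00136), Atf3 was 1.34 ± 0.629 CPM in Adn-Lpin1-/- LFD and 0.517 ± 0.162 CPM in WT HFD (SD, n = 5 each; log2 fold change 1.37, SE 0.36, edgeR adjusted p = 0.0106) and Eif2ak3, which encodes PERK, had 0.51 (edgeR adjusted p = 0.0146). Atf3 exceeded 1 CPM in knockout mice only, so it was tested through the groups where it was high. Eif2ak3 was not called without mouse 2 of the knockout (edgeR adjusted p = 0.0524), and without mouse 3 of WT HFD 3 of the 35 genes were called. Of 32 NRF2 and glutathione genes, 2 were called higher and 2 lower, with a median of -0.03. This share of 12.5% was below that of all genes tested. Gclm, of glutathione synthesis, was 106 ± 13.5 CPM in Adn-Lpin1-/- LFD and 149.7 ± 11.7 CPM in WT HFD (SD, n = 5 each; log2 fold change -0.50, SE 0.08, edgeR adjusted p = 0.000211), the thioredoxin reductase Txnrd1 had -0.25 (edgeR adjusted p = 0.0107) and Nfe2l2, which encodes NRF2, 0.38 (edgeR adjusted p = 0.0295), the last of which was not called without mouse 2 or 5 of the knockout or mouse 2, 3 or 4 of WT HFD (edgeR adjusted p between 0.0540 and 0.0841). Only 2 of these genes were called without mouse 2 of the knockout or mouse 2 or 3 of WT HFD.

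Of 23 sphingolipid genes, 4 were called higher and 2 lower, with a median of 0.05. Their share called was 26.1%, against 20.6% of all genes tested. Acer2, a ceramidase, was 11.9, 15.4, 11.4, 12.8 and 17.4 CPM in the Adn-Lpin1-/- LFD mice and 9.06, 8.04, 8.75, 10.7 and 5.73 CPM in the WT HFD mice (log2 fold change 0.71, SE 0.15, edgeR adjusted p = 0.00306). The calls of the ceramide kinase Cerk and the sphingomyelin synthase Sgms2 (0.52 at edgeR adjusted p = 0.0396 and -0.36 at edgeR adjusted p = 0.0238) were lost without any of 7 and any of 3 of the 10 mice (edgeR adjusted p up to 0.110 and 0.0854), and without mouse 2 of WT HFD 1 sphingolipid gene was called, without mouse 3, 4 or 5 of the knockout or mouse 5 of WT HFD 3. Of 33 lysosomal genes, 3 were called higher and 4 lower, with a median of 0.04, among them the glucuronidase Gusb at 38.7 ± 4.72 CPM in Adn-Lpin1-/- LFD and 27 ± 3.26 CPM in WT HFD (SD, n = 5 each; log2 fold change 0.52, SE 0.10, edgeR adjusted p = 0.00169) and the cathepsin Ctsh (-0.24 at edgeR adjusted p = 0.00702). The lysosomal share called, 21.2%, was close to the 20.6% of all genes tested.

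Few genes of respiration and translation were called, 2.56% of respiratory chain subunits and 1.32% of ribosomal protein genes, against 20.6% of all genes tested. Of 78 nuclear respiratory chain subunits, 2 were called higher and none lower, with a median of 0.02, and the members not called lay between -0.15 and 0.22. The number called was 4 without mouse 2 of the knockout. Uqcr10, of complex III, was 121 ± 7.69 CPM in Adn-Lpin1-/- LFD and 97.1 ± 9.81 CPM in WT HFD (SD, n = 5 each; log2 fold change 0.32, SE 0.07, edgeR adjusted p = 0.00376), and Cox7a1, a subunit isoform of heart and muscle, was 1.69 ± 0.195 CPM in Adn-Lpin1-/- LFD and 0.942 ± 0.25 CPM in WT HFD (SD, n = 5 each; log2 fold change 0.84, SE 0.24, edgeR adjusted p = 0.0158). None of the 13 mitochondrially encoded messenger RNAs was called by edgeR, DESeq2 or voom or had an unadjusted p under 0.05, and 1 was called higher by edgeR after the GC trend was removed. For mt-Nd4, of complex I, the log2 fold change was -0.12 (edgeR adjusted p = 0.36), and 0.066 after the GC trend was removed. That fit called 6 respiratory chain subunits higher and 2 lower, and 4 ribosomal protein genes lower. Of 76 cytosolic ribosomal protein genes, Rps6 was called lower (-0.21 at edgeR adjusted p = 0.0433), a call lost without any of 7 of the 10 mice (edgeR adjusted p up to 0.106), and the median was -0.08. In Adn-Lpin1-/- HFD against WT LFD, 73 of the 76 ribosomal protein genes and 25 of the 78 respiratory chain genes were called lower, with medians of -0.42 and -0.14, whereas here 1 and none were. The difference between the comparisons was not tested for these lists.

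Beside WT LFD, the group that neither carried the deletion nor received the HFD, 1877 genes were called in Adn-Lpin1-/- LFD (14.4% of those tested) and 144 in WT HFD (1.10%). The same WT LFD mice stand in both, so the values of both comparisons are only set side by side. WT LFD was also sequenced to less depth, 36260187 to 45999456 counts per mouse. Cidec was 2.74 in Adn-Lpin1-/- LFD and -0.03 in WT HFD on the log2 scale, Ppp1r3g 3.80 and -0.99, and Enho -1.78 and 1.72. For Insr the values were -0.42 and 0.17, for Cyp2c37 -1.05 and 0.70, and for Col1a1 2.85 and 0.54. Ppp1r3g, Enho, Insr and Cyp2c37 were called in Adn-Lpin1-/- LFD, with edgeR adjusted p up to 0.023. None of these was called in WT HFD (edgeR adjusted p = 0.209, 0.0782, 0.312 and 0.126). The fatty acid synthesis list had medians of 0.43 and -0.29, the pericentral list -0.20 and 0.16, the acute phase list -0.11 and 0.23, and the collagen chains 0.94 and 0.17. In the first 3 of these lists the medians lay on opposite sides of 0, and in the collagen list on the same side.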

How the data were processed

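Liver messenger RNA of 20 single male mice in 4 groups of 5 and of 4 pools was sequenced after poly-A selection. The authors used STAR 2.5.1a (GRCm38) for alignment and featureCounts 1.4.6-p5 with Ensembl release 76 for counting, and per library deposited 41388 genes as a raw count, as CPM and as RPKM. All values given were computed from the deposited counts, and the authors' own scaled columns, CPM and RPKM, entered no test. The strand setting of the counting is not given in the sources used here. Gene symbols (97.3% of identifiers) and coordinates are from GENCODE mouse release 21.

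The 355 rRNA genes and genes that did not exceed 1 CPM in 4 or more single mice were left out. The 13052 others were fitted with edgeR 4.0.16 (R 4.3.3) with TMM scaling and 1 mean for each of the 4 groups, and the p-values of its quasi-likelihood test were adjusted by Benjamini-Hochberg (called at 0.05). The comparisons were Adn-Lpin1-/- LFD against WT HFD and Adn-Lpin1-/- HFD against WT LFD, and Adn-Lpin1-/- LFD and WT HFD were each also read against WT LFD. The tests were first tested on simulated data. Separation of the groups was tested by exact two-sided permutation of the mice.

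Members and lists were chosen with earlier results of these data known, so lists carry counts and medians and no test. The genes named are the 10 largest increases and decreases among called genes of at least 1 CPM whose mice do not overlap (predicted genes passed over), up to 3 called members of each list by p or, where none was called, the 1 with the smallest p, the 5 largest changes called in both comparisons in the same and in opposite directions under the same limits, and Lpin1, Cidea, Cidec, Plin4, Col1a1, Spp1, Cd68, Fasn, Scd1, Pck1 and Insr. Timp1, also on that list, is not in the fit. Other members named in the text were chosen after their values were seen.

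The alternatives were DESeq2 1.42.0 (size factors or Wald test), voom with quality weights of limma 3.58.1, the same with pools, no limit on low counts, edgeR's default limit, a fit of the 2 groups alone, the replicate number as a block, exclusion of ribosomal protein and mitochondrial genes, removal of the GC trend, and each mouse left out. Pools were otherwise left out. The labels name no litter, cage or batch, and same-numbered mice did not deviate together (correlations of -0.17 to 0.10), so the numbers were not taken as pairs. Depth was 51095146 to 62249701 counts. The edgeR p-values of the main fit set a difference between groups against a spread between mice estimated from all 20 single mice. Summaries and figures used pandas 2.3.3, matplotlib 3.10.9, scipy 1.17.1 and numpy 2.4.6 under Python 3.11.15.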

Additional observations from a re-analysis of the deposited data

Results flagged for a closer look

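Of 230 groups of 5 mice (115 named genes in each of the 2 groups), 12 held a mouse whose gap to the nearest other was a large part of the group's range by Dixon's criterion, where chance gives about 1 in 20. In WT HFD, 5 of the 12 were mouse 5. It stood at 4.85 CPM for Lnpep, 821.7 CPM for Glud1, 35.0 CPM for Nr5a2 and 549 CPM for Tmprss6, below the other 4 mice in each, and at 22.5 CPM for Fabp5, above them. Mouse 2 of WT HFD was lowest for Cyp2a4 at 20.8 CPM. In Adn-Lpin1-/- LFD, mouse 3 was highest for Lnpep at 1.47 CPM and for Fabp5 at 207 CPM, mouse 2 highest for Pdk4 at 25.0 CPM and for Krt19 at 4.36 CPM, mouse 1 highest for Cyp2c37 at 121 CPM, and mouse 4 highest for Steap4 at 133 CPM. Lnpep, Glud1, Nr5a2, Fabp5, Cyp2a4, Pdk4, Cyp2c37 and Steap4 were called in every fit that left out 1 of the 10 mice.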

How the results depend on the processing

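The number of genes called between Adn-Lpin1-/- LFD and WT HFD was 2694, and 2040 to 2469 with 1 mouse left out. Adding the pools, which repeat the same mice, to a voom fit with quality weights gave 5456. The numbers called in both comparisons were 897 in the same direction and 115 in opposite directions, and with 1 mouse left out 692 to 902 and 78 to 122. Voom with pools gave 2018 and 546, voom without pools 173 in opposite directions, and no limit on low counts 73. Removal of the GC trend gave 727 and 116, and fits of only the groups compared gave 710 and 83. The share of variation between the groups was 39.0%, and 37.4% to 43.1% with 1 mouse left out, with 500 genes of the highest variance 48.3%, and with genes at unit variance 29.6%. Replicate numbers did not pair the mice, since none of the 5 numbers correlated best with itself. The fit with the replicate block called 2405 genes, with 762 and 95 in the same and opposite directions, and Acaa1b, Cxcl14, Tmprss6, Rps6, Ttc36 and Col3a1 were not called in it. Of the 106 named genes that were called, 90 were called in every fit without 1 mouse. Cidea was not called by voom (log2 fold change 6.2, adjusted p = 0.123) or by voom with pools (6.41, adjusted p = 0.146). With the GC trend removed, Acaa1b, Cxcl14, Sgms2 and Cerk were not called, and mt-Nd4, not called in either fit, went from -0.12 to 0.066 on the log2 scale. The cause of these changes was not tested. With no limit on low counts 4 named genes were not called, and the 9 named genes without a call included H2-Aa, called when the 2 groups were fitted alone (adjusted p = 0.0367). Genes that did not exceed 1 CPM in 4 or more single mice were not tested, except where that limit was changed.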
